A study of Mus musculus with 4 samples.

Results

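The 10 genes described here are read as a response to fibroblast growth factor (FGF) signalling through the ERK kinases, and were followed in sorted lung cells of mouse embryos that lost Myrf in the Wt1 lineage. They were the transcription factors Etv1, Etv4 and Etv5, the feedback inhibitors Spry1, Spry2, Spry4 and Spred1, the ERK phosphatases Dusp4 and Dusp6, and the receptor-level inhibitor Il17rd. The members were taken by gene symbol alone, as 10 of the 32285 genes in the count files. Each was described per library in fibroblast-like, smooth muscle-like, mesothelial-like and muscle-like cells. The question was whether the response was lower in mutants, in which most Fgf9 transcript was gone.

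FGF ligands bind receptor tyrosine kinases and switch on the RAS, RAF, MEK and ERK kinase chain, and ERK then raises the transcription of ETS factors and of inhibitors that act back on the same chain. In the developing lung, FGF9 made by the mesothelium and the epithelium acts on receptors of the underlying mesenchyme and supports its growth. The ETV factors carry the transcriptional response, whereas SPRY, SPRED, DUSP and IL17RD proteins limit its strength and length.

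By the mating in the labels, the mutant embryos carried floxed Myrf on both alleles, a Cre recombinase made active by tamoxifen and expressed from Wt1, and a tdTomato reporter. The comparison was with Cre controls, which were also tamoxifen-exposed and also tdTomato-labelled. The labels give one mating for both groups and do not spell out the control embryos' Myrf alleles. Tamoxifen was given to the mothers at E12.5 and lungs were collected at E16.5, where E stands for embryonic day. Wt1 is expressed in mesothelium, so the reporter marks mesothelial cells and cells that descend from them. Each genotype was a pool of lungs from 3 to 5 embryos, and about 16000 living tdTomato-positive cells per genotype were loaded for droplet sequencing of transcript 3' ends. Genotype was first judged from the shape of the lungs and cells, and PCR typing followed. There were 2 libraries of mutants and 2 of controls. No label states if both libraries of one genotype were drawn from 1 pool, so p-values measure only the spread between these libraries, which may be technical.

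After filtering, mutant libraries 1 and 2 held 411 and 4275 cells, and control libraries 1 and 2 held 281 and 3503. Their totals lay between 8175944 and 80755665 unique molecular identifiers (UMIs, counts of distinct transcript copies), with medians of 14322 to 38719 UMIs per cell. No pair of libraries shared more than 4 cell barcodes. Myrf itself stood at 19.1 and 7.22 UMIs of the gene per 1000000 UMIs (CPM) in mutant libraries 1 and 2, against 76.0 and 48.5 CPM in control libraries 1 and 2, and it was not called over all sorted cells (log2 change -2.22 ± 0.41, edgeR quasi-likelihood test, Benjamini-Hochberg adjusted p = 0.131). The libraries also differed in embryo sex: of the cells that could be typed by either Xist or Y-linked transcripts alone, 64.7 and 82.8% carried Xist in mutant libraries 1 and 2, against 24.2 and 56.2% in control libraries 1 and 2. Control library 2 stood apart, since 2047 of its 3503 cells carried a mixed profile that was left unnamed and out of all classes, by a rule set after seeing the data. The marker list these cells met most was the mesothelial one, with 8 markers, and Upk3b was at 561 CPM in them. The labels call the sorted cells mesothelial, but mesothelial-like cells numbered 2 and 11 in mutant libraries 1 and 2, against 113 and 732 in control libraries 1 and 2. Muscle-like cells, led by Tnnt2, Des, Ramp1 and Actc1, numbered 262 and 1431 in mutants, against 1 and 22 in controls. Their cluster met 7 smooth muscle markers and 5 muscle-like ones, and was named by its leading genes, a rule set after seeing the data. Fibroblast-like cells numbered 92 and 2360 in mutants and 86 and 503 in controls, and smooth muscle-like cells numbered 26 and 327 in mutants and 20 and 141 in controls. The clusters behind these classes were drawn without the members.

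The promoters of Dusp6, Etv1 and Il17rd are shown as examples from the class comparison described below, 2 members lower and 1 higher in mesothelial-like cells. Etv4 had the most negative fitted value there and has no entry in the promoter table used. The sequences are credited to RefSeq on build GRCm38.p6 and run from 250 bases before to 50 bases after a transcript start. Dusp6 lies at chr10:99262981-99263280 on the plus strand, Etv1 at chr12:38779832-38780131 on the plus strand and Il17rd at chr14:27038751-27039050 on the plus strand. Capitals mark AGGAAG or its reverse complement CTTCCT, a sequence that ETS factors can bind.
Dusp6: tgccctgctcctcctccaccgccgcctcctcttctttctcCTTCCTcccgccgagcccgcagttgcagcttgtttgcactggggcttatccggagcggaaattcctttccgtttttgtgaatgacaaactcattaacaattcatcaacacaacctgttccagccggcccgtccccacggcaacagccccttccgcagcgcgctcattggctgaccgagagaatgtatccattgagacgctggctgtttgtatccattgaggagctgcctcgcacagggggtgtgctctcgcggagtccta
Etv1: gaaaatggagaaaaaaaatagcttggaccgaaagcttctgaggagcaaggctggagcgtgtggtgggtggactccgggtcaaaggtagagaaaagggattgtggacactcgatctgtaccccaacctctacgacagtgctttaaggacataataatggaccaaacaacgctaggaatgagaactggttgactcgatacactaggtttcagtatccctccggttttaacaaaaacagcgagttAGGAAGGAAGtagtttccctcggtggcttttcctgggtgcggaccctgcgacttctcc
Il17rd: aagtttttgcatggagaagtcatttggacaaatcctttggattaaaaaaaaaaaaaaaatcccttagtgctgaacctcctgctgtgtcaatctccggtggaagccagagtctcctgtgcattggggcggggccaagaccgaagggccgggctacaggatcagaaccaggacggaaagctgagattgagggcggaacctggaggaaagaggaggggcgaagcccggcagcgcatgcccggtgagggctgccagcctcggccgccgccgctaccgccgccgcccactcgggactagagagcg
Of the 10 members, 7 matched the promoter table, with 9 entries in all. AGGAAG on either strand was in 3 of these 9 entries, against 35.4% of 32851 promoters of the same length. The 3 were entries of Dusp6, Etv1 and Etv5. Spry1 and Spred1, also called lower in mesothelial-like cells, have entries without AGGAAG. Etv1 and Etv5 each also have another entry without it, and that of Etv1 is not shown. The 2 matches in Etv1 overlap each other, and a match describes letters, not a bound site. The longer CCGGAAG, on either strand, was in 0 of the 9, against 8.86% of all promoters. By the GENCODE vM21 annotation (mm10) all 10 members are protein-coding, with Dusp6 on chromosome 10 from 99263231 to 99267489, Etv1 on chromosome 12 from 38779380 to 38870484, Etv5 on chromosome 16 from 22381309 to 22439719 and Il17rd on chromosome 14 from 27038941 to 27107286.

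Fgf9, the ligand, was made mostly outside fibroblast-like and smooth muscle-like cells. In mesothelial-like cells of controls it stood at 195 and 169 CPM, and these cells held 93.8% of the Fgf9 UMIs of control library 1 and 59.0% of those of control library 2, where the mixed cells held 38.9%. In muscle-like cells of mutants it stood at 18.8 and 17.7 CPM, and these cells held 81.1 and 84.8% of the Fgf9 UMIs of the mutant libraries. Over all sorted cells Fgf9 was at 15.7 and 7.60 CPM in mutants, against 105 and 77.9 CPM in controls, and it fell (log2 change -2.95 ± 0.33, SE, n = 2 per group, edgeR quasi-likelihood, Benjamini-Hochberg adjusted p = 0.0399). It passed in 11 of 12 other settings, the exception being the sums without the mixed cells (edgeR adjusted p = 0.0526). The few mesothelial-like cells of mutants still held Fgf9, at 99.7 CPM in mutant library 1 and 168 CPM in mutant library 2. In fibroblast-like cells Fgf9 was low, with 1 and 4 UMIs in mutants and 2 and 23 UMIs in controls. The 23 UMIs of control library 2 (1.92 CPM) lay above the floor of 3 UMIs, and the other libraries were near or below it.

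**Figure D1:**
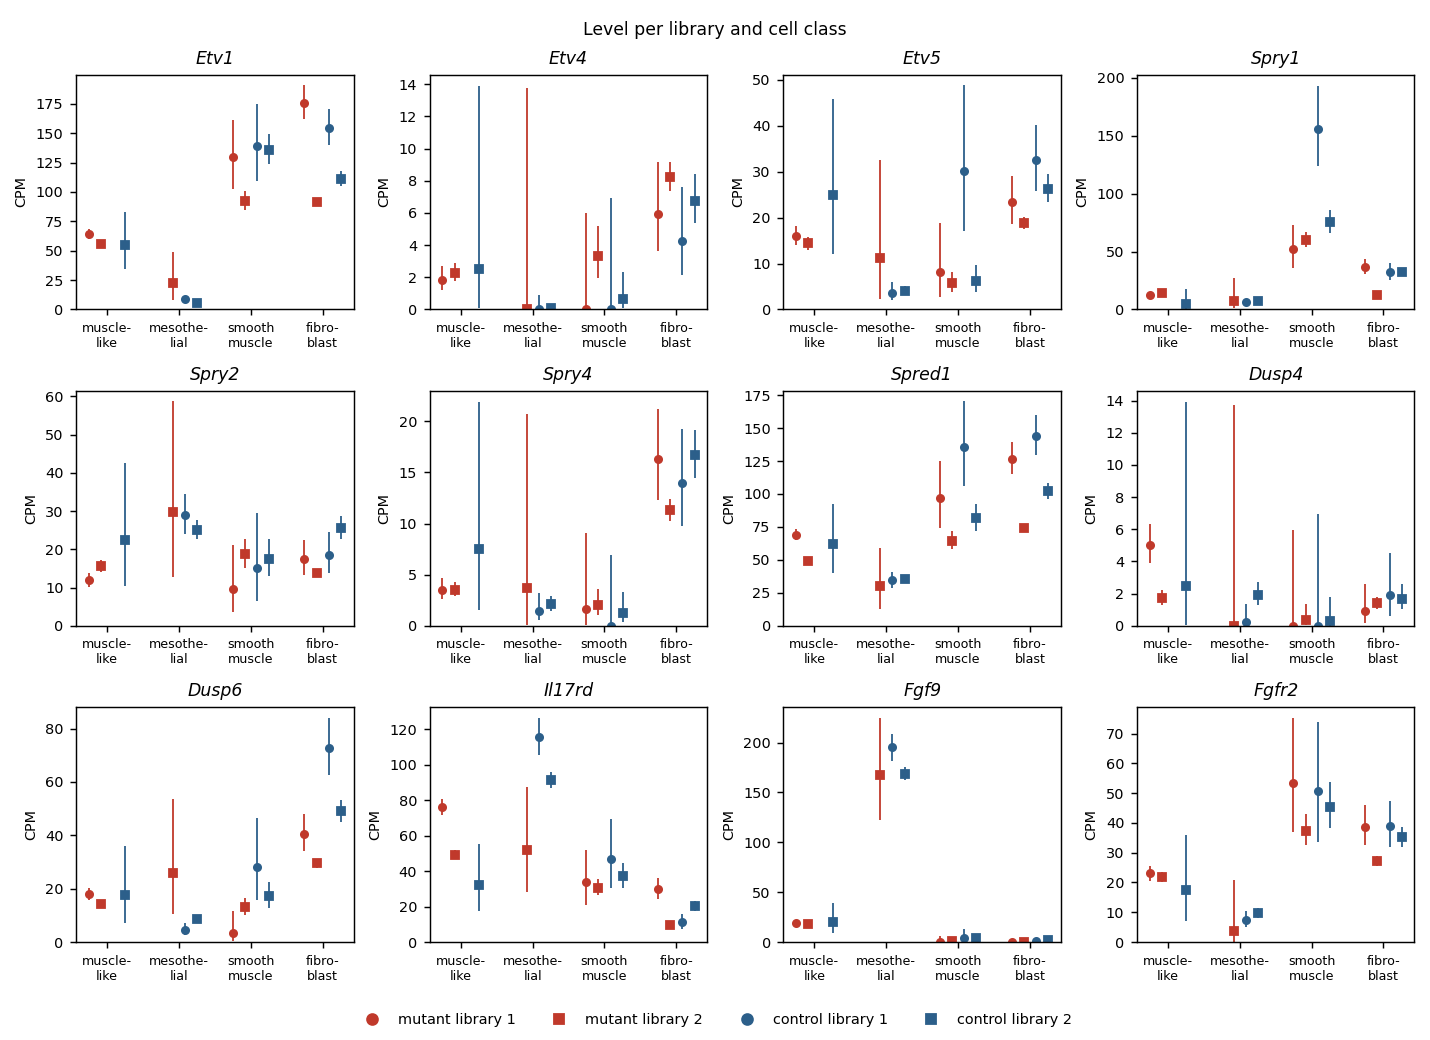
Level of the 10 members, Fgf9 and Fgfr2 in CPM (y axes, linear) by cell class (x axes); each point is 1 library, bars are exact Poisson 95% intervals that cover counting error only, and libraries with under 10 cells of a class, and the mixed cells, are not drawn. Etv1, Etv5 and Dusp6 sit low in mesothelial-like cells of controls, whereas Il17rd and Fgf9 are high there.

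Within the controls, most members were lower in mesothelial-like cells, which held most Fgf9, than in fibroblast-like cells, and Il17rd was higher. Of the 10 members, 7 fell in mesothelial-like against fibroblast-like cells and 1 rose, beside 49.3% of all 13352 genes called in that comparison (23.1% lower, 26.2% higher). The 7 include Etv4, which could pass the count filter before testing only through fibroblast-like cells. The members' median log2 difference was -2.54, beside 0.01 over all genes tested. The libraries were a block in this fit, since both classes came from the same 2 libraries.

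These differences depend in part on leaving out the mixed cells. In the mixed cells of control library 2, Etv1 was at 29.8 CPM, Etv5 at 21.96 CPM and Dusp6 at 26.1 CPM, against 5.43, 4.04 and 8.59 CPM in its mesothelial-like cells, whereas Il17rd was at 35.7 CPM, against 91.4 CPM. With the mixed cells counted as mesothelial-like, an alternative chosen after seeing the data, 5 members fell and Il17rd rose. Fewer of all genes were called in that fit as well, as given under the processing. Etv4 and Etv5 then did not pass (edgeR adjusted p = 0.0632 and 0.0828), and the log2 difference of Etv1 was -3.17 (edgeR adjusted p = 0.00829).

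Of the 3 ETV factors, ETS-family activators of the FGF response, Etv1 and Etv5 fell in mesothelial-like cells when the mixed cells were left out. Etv4 was called lower as well, but its direction was fixed by the count filter. Etv1 was at 8.49 and 5.43 CPM in mesothelial-like cells of control libraries 1 and 2, against 155 and 111 CPM in their fibroblast-like cells. The ranges lay far apart, with a log2 difference of -4.30 ± 0.14 (edgeR adjusted p = 1.83e-06). Etv5 was at 3.64 and 4.04 CPM in mesothelial-like cells, against 32.5 and 26.3 CPM in fibroblast-like cells (log2 difference -2.85 ± 0.21, edgeR adjusted p = 3.9e-05). Etv4 gave 1 UMI in all mesothelial-like cells of controls, against 92 in their fibroblast-like cells, a pooled ratio of fibroblast-like over mesothelial-like cells of 126 with a counting interval of 22.1 to 5040. Its fitted log2 difference, -6.62, depends on the prior count and is no bound (edgeR adjusted p = 0.000288). With 0 and 1 UMIs in mesothelial-like cells of control libraries 1 and 2, Etv4 was tested only because fibroblast-like cells held more. Its call therefore says nothing further about direction.

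Among the feedback inhibitors, the direction was not shared. Spry1, which binds adaptors of receptor signalling, was at 6.31 and 7.20 CPM in mesothelial-like cells, against 32.1 and 32.7 CPM in fibroblast-like cells, with a log2 difference of -2.24. Spry4 was at 1.46 and 2.08 CPM, against 13.9 and 16.7 CPM, with a log2 difference of -3.07. Spred1, which brings neurofibromin to RAS, was at 34.5 and 35.4 CPM, against 144 and 102 CPM, with a log2 difference of -1.77. The adjusted p of these 3 lay between 5.62e-05 and 0.000118 in edgeR. Spry2 did not pass, at 28.9 and 25 CPM in mesothelial-like and 18.6 and 25.6 CPM in fibroblast-like cells (log2 difference 0.20 ± 0.19, edgeR adjusted p = 0.435). It depended on which fibroblasts were used: against the Tcf21 cluster alone it passed as higher (log2 difference 1.40, edgeR adjusted p = 0.00039).

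The phosphatases and the receptor-level inhibitor parted ways. Dusp6, a phosphatase of ERK in the cytoplasm, was at 4.61 and 8.59 CPM in mesothelial-like cells, against 72.7 and 49.0 CPM in fibroblast-like cells, with a log2 difference of -2.97 ± 0.28 (edgeR adjusted p = 0.000122). Dusp4, a nuclear phosphatase, was low in both classes, at 0.243 and 1.89 CPM against 1.93 and 1.67 CPM, and did not pass (edgeR adjusted p = 0.698). Il17rd, also called Sef, which binds FGF receptors and damps their signal, was the 1 member that rose. It was at 116 and 91.4 CPM in mesothelial-like cells, against 11.2 and 20.2 CPM in fibroblast-like cells (log2 difference 2.55 ± 0.24, edgeR adjusted p = 0.000112). Mesothelial-like cells held 80.3% of the Il17rd UMIs of control library 1 and 53.0% of those of control library 2.

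Other genes of the pathway gave the setting. Of 13 tested genes of a list of other ERK response genes, 4 rose and 5 fell in mesothelial-like cells: Dusp5, another ERK phosphatase, and Ier3 rose by 3.94 and 2.73 on the log2 scale, whereas Phlda1 and Myc fell by 5.08 and 2.79. Of 12 FGF ligands, receptors and partners, 3 rose and 6 fell. Fgf9 rose by 6.67 and Fgf18 by 2.44 on the log2 scale. Fgf10 and Fgf7, ligands that act on epithelium, fell by 3.298 and 4.88. The receptor Fgfr2 fell by 2.05 ± 0.19 and Fgfr1 by 0.50 ± 0.17 (edgeR adjusted p = 0.000111 and 0.0469), and Fgfr1 did not pass in 7 of 11 other settings. In the RAS-ERK cascade itself, 4 of 19 genes rose and 2 fell, with Mapk3 (ERK1) up by 0.83 on the log2 scale. The immediate-early genes that cell dissociation induces moved too: 13 of 13 rose, with a median log2 difference of 1.68, and their summed level was 6943 and 7723 CPM in mesothelial-like cells against 1433 and 2953 CPM in fibroblast-like cells. Egr1 and Fos among them are known ERK targets, and their part in the members' differences was not tested.

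Fibroblast-like cells are part of the mesenchyme, and which of the sorted cells receive FGF9 was not tested. In fibroblast-like cells no member passed the test between mutants and controls. Of 12522 genes tested in these cells 0 were called (0.0%), with 262 at an unadjusted p under 0.05 by edgeR and 7 called by DESeq2, none of them a member. The members' fitted changes were lower for 7 and higher for 3, with a median of -0.31 on the log2 scale beside 0.02 over all genes tested. In 4 of 10 members both mutant libraries lay below both controls, beside 13.5% of all genes tested, and in 0 of 10 both lay above, beside 8.11%. The 4 were Dusp6, Etv5, Spry2 and Dusp4.

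Dusp6 had the lowest unadjusted p of the members. It was at 40.6 and 29.5 CPM in fibroblast-like cells of mutant libraries 1 and 2, against 72.7 and 49.0 CPM in those of control libraries 1 and 2. Both mutants were below both controls, and the Poisson interval of mutant library 1 (34.1 to 48.0 CPM) overlapped that of control library 2 (45.2 to 53.2 CPM). The log2 change was -0.73 ± 0.27, 1.66-fold lower (SE, n = 2 per group, edgeR unadjusted p = 0.0278, Benjamini-Hochberg adjusted p = 1.0). It was negative in 14 of 14 other settings, between -0.98 and -0.44, and passed in none of them, with adjusted p of 0.207 to 1.0.

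Etv5 was at 23.4 and 18.8 CPM in mutant fibroblast-like cells, against 32.5 and 26.3 CPM in control ones, with no overlap (log2 change -0.40 ± 0.24, edgeR adjusted p = 1.0, negative in 14 of 14 other settings). Etv1 overlapped, at 176 and 91.8 CPM in mutants against 155 and 111 CPM in controls, with a log2 change of 0.04 ± 0.30. Etv4 also overlapped, at 5.92 and 8.23 CPM in mutants against 4.25 and 6.77 CPM in controls. The 3 ETV factors therefore gave fitted changes on both sides of 0.

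Of the inhibitors, Spry2 was at 17.5 and 13.8 CPM in mutants, against 18.6 and 25.6 CPM in controls, so that mutant library 1 and control library 1 lay close together. Spry1 was at 36.7 and 12.53 CPM in mutants, against 32.1 and 32.7 CPM in controls. Mutant library 1 was the highest of the 4 and mutant library 2 the lowest. Spry4 was at 16.3 and 11.3 CPM in mutants and 13.9 and 16.7 CPM in controls, and Spred1 was at 127 and 73.8 CPM in mutants and 144 and 102 CPM in controls, both with overlap. Dusp4 rested on 3 and 58 UMIs in mutants and 5 and 20 UMIs in controls, at 0.888 and 1.38 CPM against 1.93 and 1.67 CPM. Il17rd was at 29.9 and 9.57 CPM in mutants and 11.2 and 20.2 CPM in controls, with the highest and the lowest value both in mutants.

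Mutant library 2 was the lowest of the 4 libraries in CPM for 8 members in fibroblast-like cells, beside 53.4% of all genes tested. After TMM scaling it was the lowest for 5 members, beside 32.1% of all genes. Mutant library 1 lay within the CPM range of the controls or above it for 6. Of the receptors, Fgfr1 and Fgfr2 overlapped between the genotypes, with Fgfr1 at 61.6 and 49.6 CPM in mutants and 49.5 and 61.7 CPM in controls, and Fgfr2 at 38.8 and 27.2 CPM in mutants and 39.1 and 35.3 CPM in controls. Fgfr3 and Fgfr4, picked after their values were seen, were below both controls in both mutants and did not pass. The further lists gave 0 calls in fibroblast-like cells as well: 0 of 11 other ERK response genes (median log2 change 0.06), 0 of 13 FGF ligands and receptors (0.02), 0 of 19 cascade genes (-0.03) and 0 of 13 immediate-early genes (0.18).

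Marker levels in these cells also differed between the libraries. Upk3b, a mesothelial marker, was at 0.592 and 0.119 CPM in fibroblast-like cells of mutants, against 5.41 and 23.2 CPM in those of controls. The summed level of all 13 mesothelial markers overlapped, at 88.2 and 23.7 CPM in mutants against 41.8 and 110 CPM in controls, with 3 and 3 of the 13 at 0 in mutants and 1 and 0 in controls. The summed level of 14 fibroblast markers was 4107 and 3634 CPM in mutants, against 4835 and 6324 CPM in controls, with no overlap. Their part in the members' differences was not tested.

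**Figure D2:**
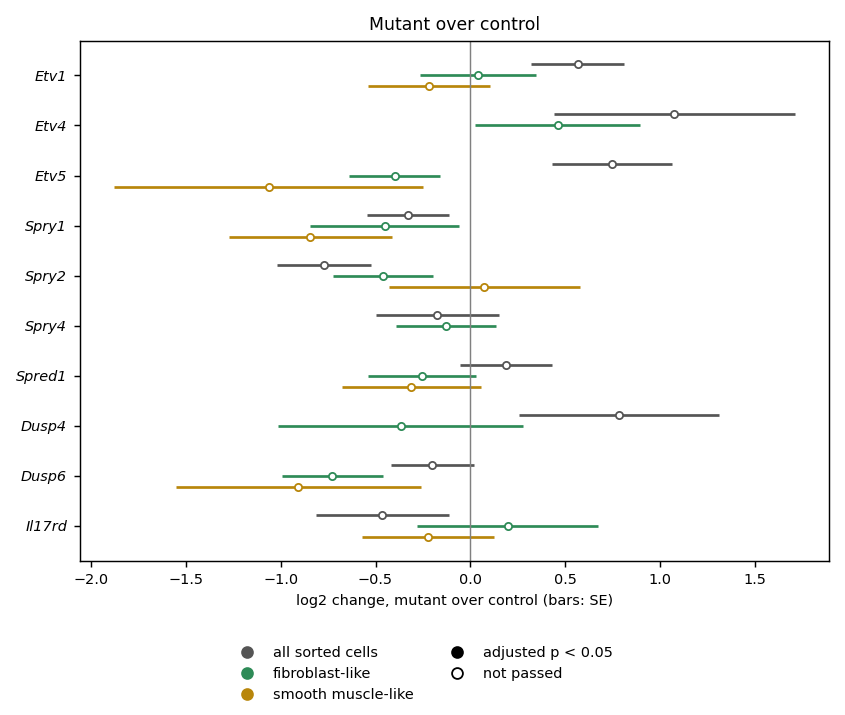
Fitted log2 change of each member, mutant over control (x axis), over all sorted cells and within fibroblast-like and smooth muscle-like cells; points are edgeR estimates, bars are their SE, and open points did not pass an adjusted p of 0.05. Every point is open, and the fibroblast-like values lie between -0.73 for Dusp6 and 0.46 for Etv4.

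The fibroblast-like class held 2 large clusters, and the CPM of Dusp6 and Etv5 in both mutants lay below both controls in each. The first was led by Lef1, Tcf7 and Pdgfra, with 63 and 1055 cells in mutants and 44 and 237 in controls. Etv1 was among its leading genes although it was left out of the clustering. The second was led by Tcf21, Adh1 and Slc38a5, with 28 and 1291 cells in mutants and 42 and 198 in controls. A small cluster led by Dpt, Agtr2 and Ptn held 1 and 14 cells of the class in mutants, against 0 and 68 in controls, so the class was not made up alike in all libraries. In that cluster Spry2 was at 61.2 CPM in control library 2, above its 25.5 and 10.5 CPM in the large clusters of that library, and the part of the small cluster in the class value of Spry2 was not tested.

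In the Lef1 cluster Dusp6 was at 38.5 and 26.9 CPM in mutants, against 61.6 and 49.2 CPM in controls. In the Tcf21 cluster it was at 48.5 and 32.2 CPM in mutants, against 83.9 and 54.3 CPM in controls. Neither cluster showed an overlap between the groups. Etv5 was at 25.2 and 22.2 CPM in mutants and 43.1 and 28.4 CPM in controls in the Lef1 cluster, and at 16.6 and 15.5 CPM in mutants and 21.8 and 24.3 CPM in controls in the Tcf21 cluster. Etv1 split by cluster, with 195 and 102 CPM in mutants and 141 and 133 CPM in controls in the Lef1 cluster, against 115 and 83.0 CPM in mutants and 169 and 116 CPM in controls in the Tcf21 cluster. Spry2 and Dusp4 were the other 2 of the 4 members below both controls in the Lef1 cluster, beside 13.3% of the genes tested in fibroblast-like cells. In the Tcf21 cluster 3 of the 10 members, Etv1, Etv5 and Dusp6, were below both controls, beside 15.9% of those genes. Fits within either cluster gave 0 called genes and 0 called members by edgeR.

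**Figure D3:**
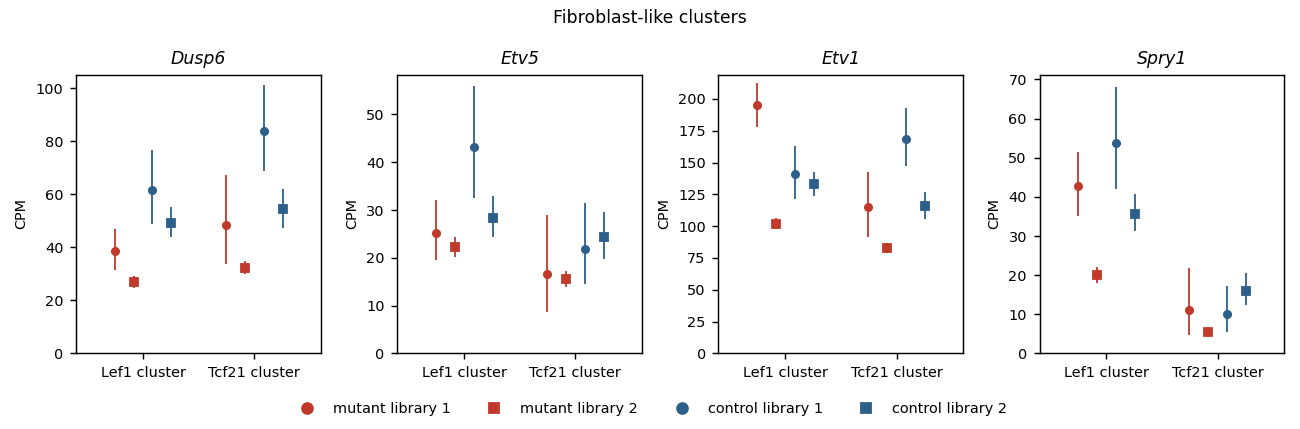
Level of Dusp6, Etv5, Etv1 and Spry1 in CPM (y axes, linear) in the Lef1-led and Tcf21-led fibroblast-like clusters (x axes); each point is 1 library and bars are exact Poisson 95% intervals that cover counting error only. For Dusp6 both mutant libraries lie below both control libraries in each cluster, whereas Etv1 and Spry1 overlap in the Lef1 cluster.

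Smooth muscle-like cells were few, 26 and 20 in the smaller library of each genotype, and again no member passed. Of 10395 genes tested 0 were called (0.0%), with 81 at an unadjusted p under 0.05 by edgeR and 0 called by DESeq2. Etv4, Spry4 and Dusp4 were below the count filter, with 0, 1 and 0 UMIs in mutant library 1 and 0, 0 and 0 in control library 1, where 3 counts would stand for 4.86 and 5.64 CPM. Of the 7 members tested, 6 had a lower and 1 a higher fitted change, with a median of -0.31 on the log2 scale beside 0.04 over all genes tested. In 4 of these 7 both mutants lay below both controls, beside 15.2% of all genes tested, and in 0 above, beside 6.34%.

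Spry1, whose level was higher in this class than in the other classes compared, was at 51.9 and 60.1 CPM in smooth muscle-like cells of mutants, against 156 and 75.5 CPM in those of controls. The controls themselves differed, and the log2 change was -0.84 ± 0.43 (edgeR adjusted p = 1.0). Dusp6 was at 3.24 and 13.2 CPM in mutants, against 28.2 and 17.1 CPM in controls, with no overlap, and mutant library 1 rested on 2 UMIs (interval 0.393 to 11.7 CPM). Its log2 change was -0.91 ± 0.64. Etv1 was at 130 and 92.4 CPM in mutants and 139 and 136 CPM in controls, and Il17rd at 34.0 and 30.8 CPM in mutants and 47.0 and 37.1 CPM in controls, both without overlap and both changed by -0.22 on the log2 scale. Etv5 was at 8.10 and 5.68 CPM in mutants and 30.1 and 6.13 CPM in controls, so that control library 1 alone stood high. Without that library its log2 change was 0.20.

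Spry2 and Spred1 overlapped between the groups in smooth muscle-like cells. Of the other lists 0 genes were called: 0 of 8 other ERK response genes, 0 of 8 FGF ligands and receptors, 0 of 19 cascade genes and 0 of 13 immediate-early genes. The 13 mesothelial markers summed to 77.8 and 57.5 CPM in smooth muscle-like cells of mutants, against 146 and 162 CPM in those of controls, with no overlap, and Upk3b was at 0 in both mutants against 13.2 and 31.9 CPM in controls. Their part was not tested. Whether the genotypes differed more in smooth muscle-like than in fibroblast-like cells was tested as an interaction, and of 12089 genes 0 were called (0.0%), with 172 at an unadjusted p under 0.05 by edgeR and 1 called by DESeq2. Of the 9 members tested 0 passed, and 0 had an unadjusted p under 0.05.

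Muscle-like cells of mutants were set against mesothelial-like cells of controls, since each genotype held almost none of the other class. Genotype and cell class cannot be told apart in this comparison, and its mesothelial-like sums are the same as those used above. Of the 10 members 6 rose and 0 fell, beside 13.2% of 14425 genes called (5.54% higher, 7.64% lower). The 6 include Etv4, which could pass the count filter only through muscle-like cells. The members' median log2 difference was 1.15, beside 0.02 over all genes tested. All 6 calls depend on leaving out the mixed cells of the controls. With those counted as mesothelial-like, an alternative chosen after seeing the data, 0 members were called by edgeR, with adjusted p of 0.0797 to 0.918 for the 6, and Etv1, Spry2 and Spred1 were at an unadjusted p under 0.05. Control library 2 then stood at 20.2 CPM for Etv1, 14.9 CPM for Etv5 and 19.2 CPM for Dusp6, so that its Dusp6 lay above both muscle-like values given next. Fewer of all genes were called as well with the mixed cells counted in, as given under the processing. The values that follow are without the mixed cells.

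Etv1 and Etv5 rose in that fit. Etv4 was called higher as well, but its direction was fixed by the count filter, with 0 and 1 UMIs in mesothelial-like cells of controls. Etv1 was at 64.2 and 55.6 CPM in muscle-like cells of mutants, against 8.49 and 5.43 CPM in mesothelial-like cells of controls (log2 difference 3.26 ± 0.25, edgeR adjusted p = 0.000858). Etv5 was at 16.0 and 14.4 CPM, against 3.64 and 4.04 CPM (log2 difference 2.04 ± 0.23, edgeR adjusted p = 0.0031). These calls held in 12 of 13 other settings, the exception being the mixed cells counted as mesothelial-like (edgeR adjusted p = 0.0797 for Etv1 and 0.789 for Etv5). Etv4 gave 93 UMIs against 1, a pooled ratio of 42.7 with a counting interval of 7.47 to 1700 (edgeR adjusted p = 0.00998), and it did not pass without control library 2 (edgeR adjusted p = 0.0548).

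Spry1, Spred1 and Dusp6 passed by less. Spry1 was at 12.0 and 14.1 CPM in muscle-like cells, against 6.31 and 7.20 CPM in mesothelial-like cells (log2 difference 1.03 ± 0.26, edgeR adjusted p = 0.0452). Spred1 was at 69.0 and 49.3 CPM, against 34.5 and 35.4 CPM (log2 difference 0.83 ± 0.19, edgeR adjusted p = 0.0356). Dusp6 was at 17.9 and 14.3 CPM, against 4.61 and 8.59 CPM (log2 difference 1.27 ± 0.30, edgeR adjusted p = 0.0404). The calls rested on the controls: Spry1, Spred1 and Dusp6 did not pass without control library 1. Spry1 and Spred1 did not pass without control library 2 either, and Spry1 did not pass without mutant library 2. Dusp6 also did not pass with the stricter cell filter or at a clustering resolution of 0.8 (edgeR adjusted p = 0.0540 and 0.0566), and Spry1 did not pass in DESeq2 (adjusted p = 0.0590). Without mutant library 1, 8 were called, Spry2 and Il17rd as lower among them (edgeR adjusted p = 0.0374 and 0.000579). Without mutant library 2, 7 were called, with Spry2 lower (edgeR adjusted p = 0.000513) and Dusp4 higher (0.0351).

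The remaining 4 did not pass. Spry2 was at 11.9 and 15.6 CPM in muscle-like cells of mutants, against 28.9 and 25 CPM in mesothelial-like cells of controls (log2 difference -0.85 ± 0.25, edgeR adjusted p = 0.0755). Il17rd was at 76.2 and 49.2 CPM, against 116 and 91.4 CPM (log2 difference -0.65 ± 0.23, edgeR adjusted p = 0.127), so both had lower fitted values that did not pass. Spry4 was at 3.54 and 3.54 CPM, against 1.46 and 2.08 CPM, and Dusp4 at 5.03 and 1.70 CPM, against 0.243 and 1.89 CPM. Muscle-like cells held 87.1 and 69.6% of all Il17rd UMIs of mutant libraries 1 and 2.

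Fgf9 fell in the same comparison (log2 difference -3.22 ± 0.21, edgeR adjusted p = 0.000525), whereas Fgfr2 rose, at 23.0 and 21.8 CPM against 7.28 and 9.72 CPM (log2 difference 1.44 ± 0.23, edgeR adjusted p = 0.0097, and 0.330 with the mixed cells counted as mesothelial-like). Of 14 other ERK response genes 3 rose, Phlda1, Epha4 and Myc, by 4.21, 2.04 and 2.63 on the log2 scale, and Dusp5 fell by 1.72. Of 13 FGF ligands, receptors and partners 4 rose, among them Fgf10 by 2.68 on the log2 scale, and 2 fell. Of the 19 cascade genes 0 were called. Of the 13 immediate-early genes 0 rose and 1 fell, Atf3, by 1.25 on the log2 scale, and their summed level was 5670 and 4579 CPM in muscle-like cells against 6943 and 7723 CPM in mesothelial-like cells.

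**Figure D4:**
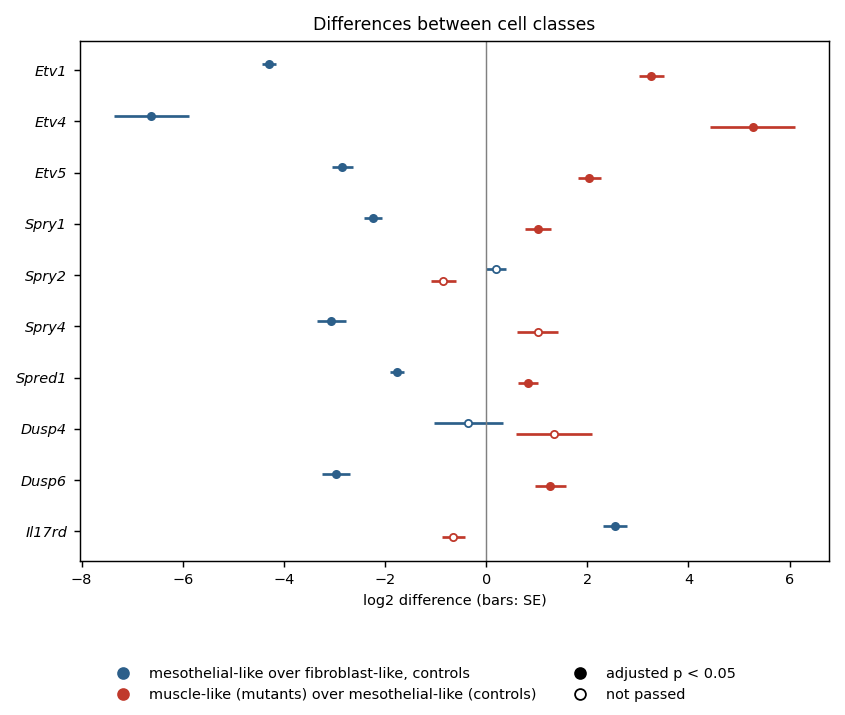
Fitted log2 difference of each member (x axis) for mesothelial-like over fibroblast-like cells of controls (blue) and for muscle-like cells of mutants over mesothelial-like cells of controls (red); bars are SE, filled points passed an adjusted p of 0.05. Both comparisons use the same mesothelial-like libraries, Etv1 reads -4.30 in blue and 3.26 in red, and Il17rd is filled on the right in blue only, at 2.55. The mixed cells are left out, and with them counted as mesothelial-like 0 members passed in the comparison shown in red.

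The few cells of the opposite genotype in each class gave levels with wide intervals and no test. The 22 muscle-like cells of control library 2 had Etv1 at 54.9 CPM, Etv5 at 24.96 CPM and Il17rd at 32.5 CPM. The 11 mesothelial-like cells of mutant library 2 had Etv1 at 22.3 CPM on 6 UMIs, Dusp6 at 26.1 CPM on 7 UMIs and Il17rd at 52.1 CPM. The Etv1 interval of these 11 cells, 8.20 to 48.6 CPM, overlapped that of the mesothelial-like cells of control library 1, 5.92 to 11.8 CPM, and not that of control library 2, 4.34 to 6.71 CPM. These intervals cover counting error only. The 12 smooth muscle markers summed to 6285 CPM in the 11 cells, against 1997 and 1601 CPM in mesothelial-like cells of controls, and their part was not tested.

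Over all sorted cells the members moved in both directions, and none passed. Of 16246 genes 58 were called (0.357%), 3 higher and 55 lower, and 0 of 10 members were among them, with 1 member, Spry2, at an unadjusted p under 0.05 by edgeR and 0 members called by DESeq2. In these sums fewer cells of a type and less RNA per cell cannot be told apart. The members' fitted changes were higher for 5 and lower for 5, with a median of 0.01 on the log2 scale beside 0.03 over all genes tested. In 3 of 10 members, Spry1, Spry2 and Dusp6, both mutants lay below both controls, beside 17.8% of all genes tested, and in 2, Etv1 and Etv5, both lay above, beside 12.6%.

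Spry2 was at 15.7 and 16.2 CPM in mutants, against 27.6 and 29.5 CPM in controls, with each group close together (log2 change -0.77 ± 0.25, edgeR adjusted p = 0.394). Mesothelial-like cells, almost absent from the mutants, held 52.7% of the Spry2 UMIs of control library 1 and 23.1% of those of control library 2, where the mixed cells held 50.3%. Etv5 was at 45.3 and 22.1 CPM in mutants, against 18.8 and 21.5 CPM in controls, and epithelial-like cells held 65.3 and 29.1% of its UMIs in mutant libraries 1 and 2, against 22.1 and 23.0% in control libraries 1 and 2. Etv1 was at 76.9 and 75.1 CPM in mutants, against 64.6 and 45.0 CPM in controls (log2 change 0.57 ± 0.25, edgeR adjusted p = 0.622). Dusp6 was at 24.3 and 23.2 CPM in mutants, against 30.7 and 26.9 CPM in controls, and Spry1 at 20 and 17.9 CPM in mutants, against 27.4 and 22.8 CPM in controls.

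Etv4 was the 1 member whose call over all sorted cells turned on a library. It was at 2.53 and 5.72 CPM in mutants, against 1.35 and 2.67 CPM in controls (log2 change 1.08 ± 0.64, edgeR adjusted p = 0.837), and it passed without mutant library 1 (edgeR adjusted p = 0.0294). Il17rd was at 59.0 and 25.7 CPM in mutants and 72.7 and 47.1 CPM in controls, with overlap. Spry4, Spred1 and Dusp4 overlapped as well. Among the lists, 0 of 14 other ERK response genes, 1 of 14 FGF ligands and receptors, Fgf9 itself, 0 of 19 cascade genes and 0 of 13 immediate-early genes were called.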

How the data were processed

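The authors deposited unnormalized UMI counts for every gene and barcode, made with Cell Ranger 6.0.2 on mm10 per the submitters' processing notes, and the gene annotation release and barcode calling settings are not given in the sources used here. Barcodes with at least 1000 genes and at most 15% mitochondrial UMIs were kept (8733 passed). Scrublet's automatic threshold marked 9 doublets and so did not work. The highest scores were removed at 0.8% per 1000 barcodes, which left 8470 cells.

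Cells were clustered in scanpy 1.11.5 and scikit-learn 1.9.0 (3000 variable genes, 30 components, 15 neighbours, Leiden resolution 0.4, igraph 0.11.9), leaving out 436 cell-cycle genes and 72 genes of the members and lists. Centring was within replicate number. Of the 12 clusters, a cluster took the name of the marker list with the most members in at least 10% of its cells and 2-fold above other clusters, at least 3 being needed. The muscle-like name needed 3 muscle-like markers among the 10 leading genes, and a cluster stayed unnamed where at least 66% of markers lay within 2-fold of the other cells. Both of these rules were set after seeing the data.

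UMI counts summed per library and class were tested with edgeR 4.0.16 under R 4.3.3 (TMM scaling after filterByExpr, then glmQLFit and glmQLFTest, two-sided, Benjamini-Hochberg over all genes tested, adjusted p under 0.05) in 6 comparisons, with a library block only between classes of the controls and in the interaction. The SE of an edgeR value is approximate, its absolute log2 change divided by the square root of its quasi-likelihood F statistic. CPM are per library and class, without TMM, from 3' tags, so levels were compared within a gene only. Intervals are exact Poisson at 95%, and cover counting error only. In simulated data with known changes, 2-, 4- and 8-fold changes were recovered at 19.7, 81.8 and 98.4% in fibroblast-like cells (12278 genes, 0 false calls) and at 3, 50 and 87.7% in smooth muscle-like cells (10099 genes, 6 false calls). Only genes above a minimum expected count in the smallest library were changed in the simulation, with counts drawn from the fitted dispersion trend. Genes as low as Dusp4 in fibroblast-like cells were therefore not among the changed ones. Replicate libraries were not repeats of 1 library (chi-square over degrees of freedom of 220 in mutants and 105 in controls). DESeq2 1.42.0, other filters, normalization, clusterings and left-out libraries were alternatives.

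The members and lists were chosen with earlier results of these data known. The text names the members, Fgf9, Fgfr1, Fgfr2, Myrf and Upk3b, of each list up to 4 called genes with the smallest p, and the 5 genes most alike in pattern, with exceptions marked where they stand.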

Additional observations from a re-analysis of the deposited data

How the results depend on the processing

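No member was called under any alternative tried in fibroblast-like cells, in smooth muscle-like cells or in the interaction. Between the classes of controls 8 members were called in 10 of 11 alternatives, but with the Tcf21-led cluster alone Spry2 was among them and Etv4 was below the count filter. With the mixed cells counted as mesothelial-like, 6 members and 2863 genes were called there, and for muscle-like against mesothelial-like cells 0 members and 521 genes. The number of called members was 1 without mutant library 1 over all sorted cells (range 0 to 1 with 1 library left out), and for muscle-like cells of mutants against mesothelial-like cells of controls it ranged from 3 to 8 with 1 library left out. Counts of all called genes moved more. Over all sorted cells they were 493 with DESeq2, 685 without a count filter and 37 without the mixed cells, and 74 to 1097 with 1 library left out. In fibroblast-like cells they were 7 and 116 with DESeq2 and without a filter, and 0 to 93 with 1 library left out. In smooth muscle-like cells they were 7 without a filter and 1 to 276 with 1 library left out. Between the classes of controls DESeq2 called 3500, and for muscle-like against mesothelial-like cells 3099 were called without a filter and 1025 to 4511 with 1 library left out. For the interaction they were 1 with DESeq2, 19 without a filter, 3 with the stricter cell filter, 1 with the second fibroblast-like cluster (an alternative chosen after seeing the data), and 0 to 21 with 1 library left out.

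With the replicate number as a block, called genes were 525 over all sorted cells, 8 in fibroblast-like cells, 18 in smooth muscle-like cells and 4826 for muscle-like against mesothelial-like cells, where 9 members were called. Same-numbered libraries deviated together (correlations of 0.453, 0.291 and 0.45 over all sorted, fibroblast-like and smooth muscle-like cells). There are only 2 pairs, and the labels do not say what a number stands for. The main fits between genotypes therefore did not take the numbers as pairs. The clustering behind the classes did use them, since its centring joined the mutant and control library of the same number.

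Single members kept their direction and side of the threshold in 117 of 120 values over all sorted cells, 124 of 136 in fibroblast-like cells, 75 of 84 in smooth muscle-like cells and 104 of 108 between the classes of controls. For muscle-like against mesothelial-like cells it was 105 of 130, with 16 calls lost and 9 gained. Directions turned in fibroblast-like cells with the Tcf21-led cluster alone, where the log2 change was -0.47 for Etv1, 0.031 for Spry2, 0.32 for Spry4 and -0.35 for Il17rd. With 1 library left out the ranges crossed 0 there for Etv1 (-0.26 to 0.32), Etv4 (-0.055 to 0.91), Spry1 (-1.11 to 0.082), Spry4 (-0.24 to 0.046), Spred1 (-0.47 to 0.0014) and Il17rd (-0.52 to 0.77), and over all sorted cells for Spry4 (-0.45 to 0.057). In smooth muscle-like cells they crossed 0 for Etv5 (-2.01 to 0.20), Spry2 (-0.83 to 0.43) and Spred1 (-0.62 to 0.034). There Spry2 was also at -0.34 with doublets kept, -0.39 with the stricter cell filter, -0.28 with members kept in the clustering and -0.093 at resolution 0.8, and Il17rd was at 0.043 with doublets kept. Between the classes of controls, the Lef1-led cluster alone gave -0.038 for Spry2 and 0.037 for Fgfr1. The causes were not tested. Leaving out a library was not possible between the classes of controls, where it leaves no residual degrees of freedom. Cell numbers limit the values of the smaller libraries, with 26 and 20 smooth muscle-like cells in mutant and control library 1, 2 and 11 mesothelial-like cells in mutants and 1 and 22 muscle-like cells in controls. Simulated 2-fold changes were mostly missed in fibroblast-like and smooth muscle-like cells.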

Other observations

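Outside the 4 classes, some members were present in rarer cells that the sort also held. Pericyte-like cells, named from Cspg4, Pdgfrb and Rgs5 among others, numbered 2 and 26 in mutants and 11 and 10 in controls. In them Spry4 was at 248.7 and 48.8 CPM in mutants and 240 and 56.3 CPM in controls, and Spry2 was at 118 and 29.7 CPM in mutants and 171 and 67.6 CPM in controls. Dusp4 was at 13.1 and 4.24 CPM in mutants and 68.5 and 22.5 CPM in controls. These values rest on 1 and 2 UMIs in mutants and 10 and 4 UMIs in controls, so both mutant values lay below the floor of 3 UMIs. Epithelial-like cells numbered 16 and 55 in mutants and 23 and 19 in controls, and held Etv5 at 309 and 239 CPM in mutants and 101 and 214 CPM in controls, beside Fgfr2 at 228 and 170 CPM in mutants and 71.2 and 204 CPM in controls. Endothelial-like cells had Dusp6 at 90.6 and 73.7 CPM in mutants and 42.3 and 151 CPM in controls. No test was run in these classes.

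Over 26 profiles of a library and class with at least 10 cells, the members' mean z-score was highest in pericyte-like cells of controls, at 0.778 and 0.774, and lowest in mesothelial-like cells of controls, at -0.796 and -0.685. Of 10738 other genes, the 5 whose levels followed that score most closely were Car2 (Pearson r = 0.846), Gpr27 (0.793), F2r (0.767), Phlda1 (0.754) and Dyrk2 (0.753), given as a description, since profiles of a library share its depth and handling.

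The FGF receptors Fgfr4 and Fgfr3, picked after their values were seen, were at lower values in fibroblast-like cells of both mutants than in either control, and did not pass. Fgfr4 was at 9.18 and 6.68 CPM in mutants, against 29.8 and 13.5 CPM in controls (log2 change -1.34 ± 0.40, edgeR adjusted p = 1.0). Fgfr3 was at 10.95 and 9.07 CPM in mutants, against 29.8 and 12.3 CPM in controls (log2 change -0.92 ± 0.42, edgeR adjusted p = 1.0).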
